A study of Mus musculus with 768 samples.

Results

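The genes described are 9 trophic factors and receptors, studied in Schwann cells (SCs) of the sciatic nerve, out of 25700 genes in the count table. They were chosen by name, with earlier results of these data known, and all 9 were found in it by their mouse gene identifiers. The 3 neurotrophin receptors are Ngfr (p75), Ntrk2 (TrkB) and Ntrk3 (TrkC), and Bdnf is a neurotrophin. Ptn (pleiotrophin) and Mdk (midkine) are secreted heparin-binding growth factors, Cntf is ciliary neurotrophic factor, and Gdnf signals through its receptor Gfra1.

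The study sorted single SCs from sciatic nerves of mice at postnatal day 60 (P60) into 2 plates of 384 wells. The mice carried a Cre recombinase active in the Schwann cell lineage, an eYFP reporter that this Cre switches on, and a beta-actin DsRed transgene, and sorting was on eYFP. Cells of any type in which that Cre was active at some time would carry the reporter. Each plate held cells pooled from male and female mice and different animals from the other plate, so a plate is the replicate (n = 2), and no group was treated or injured.

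Neurotrophins bind Trk receptors and p75, which axons and glia can both carry. Some Ntrk2 and Ntrk3 transcripts encode receptors without a kinase domain, and counts per gene do not separate these forms. SCs are a known source of factors for neurons. CNTF has no signal peptide for secretion and has long been known in myelinating SCs, while p75 is a common marker of SCs that do not form myelin.

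A minimum of 1500 detected genes per cell kept 674 of the 768 cells, 340 from plate 1 and 334 from plate 2. Their median depth was 158689 reads (plate 1) and 452484 reads (plate 2). The median number of detected genes was 3442 and 2295, so the deeper plate had fewer genes per cell, which thinning of reads does not even out. They were clustered with the 9 genes and 64 genes of related pathways left out, and clusters were named from marker genes. Myelinating (mSC-like) clusters held 144 cells in plate 1 and 72 in plate 2, and non-myelinating or Remak (nm(R)SC-like) clusters held 180 and 248. A further cluster of 16 and 14 cells was named prol. SC-like from proliferation markers. In plate 1 all 7 markers reached 50 CPM there, but in plate 2, at a median of 3989 reads per cell, 3 of 7 did, so the name rests on plate 1. Without integration of the plates, 12 plate 2 cells of that median depth formed a cluster that could not be named. The 11 myelin markers summed to 75340 CPM (plate 1) and 72720 CPM (plate 2) in the mSC-like class and to 6865 and 7419 CPM in the nm(R)SC-like class, where CPM is the count of a gene scaled to a common total of reads per sum. The 9 nm(R)SC markers summed to 111 and 198 CPM against 3498 and 2675 CPM. The SC markers Sox10 and S100b were at 50 CPM or more in both classes and both plates. Fibroblast markers summed to 218 and 105 CPM (mSC-like) and 694 and 303 CPM (nm(R)SC-like), nearly all of it Col1a1, while Pdgfra, Cd34 and Clec3b were below 1 CPM in all 4 sums of these classes. Genes of the response to dissociation, led by Fos, summed to 8598 and 25560 CPM (mSC-like) and to 13170 CPM in each plate (nm(R)SC-like). Repair SC markers, led by Jun, summed to 378 and 1566 CPM against 1270 and 1811 CPM. Endothelial markers summed to 76.8 and 41.6 CPM (mSC-like) and 3.80 and 1.60 CPM (nm(R)SC-like), with Cdh5, Emcn and Flt1 below 1 CPM. Nearly all of the mSC-like sums was Egfl7, at 76.7 and 41.5 CPM. The part of these lists in the results was not tested.

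Levels are such CPM values, from reads summed over the cells of a class in a plate. Shares are the percent of cells with 5 or more reads of a gene after each cell was thinned to 100000 reads, with exact 95% binomial intervals that cover counting error only. Where no cell had the gene, the limit given is instead the share that 3 cells would make. Shallower cells were left out of shares, which leaves 97 and 71 mSC-like and 114 and 241 nm(R)SC-like cells in plates 1 and 2. Smart-Seq2 reads carry no molecular identifiers, so they are not independent molecules. The test is edgeR's quasi-likelihood test on the 4 sums with the plate as a block, with p-values adjusted by Benjamini-Hochberg over all 13134 genes tested. Log2 ratios compare the mSC-like class with the nm(R)SC-like class, positive where the former was higher, and are given with their SE. Where groups are said not to overlap, this only describes 2 values per class. The share of all genes without overlap was not counted.

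**Figure D1:**
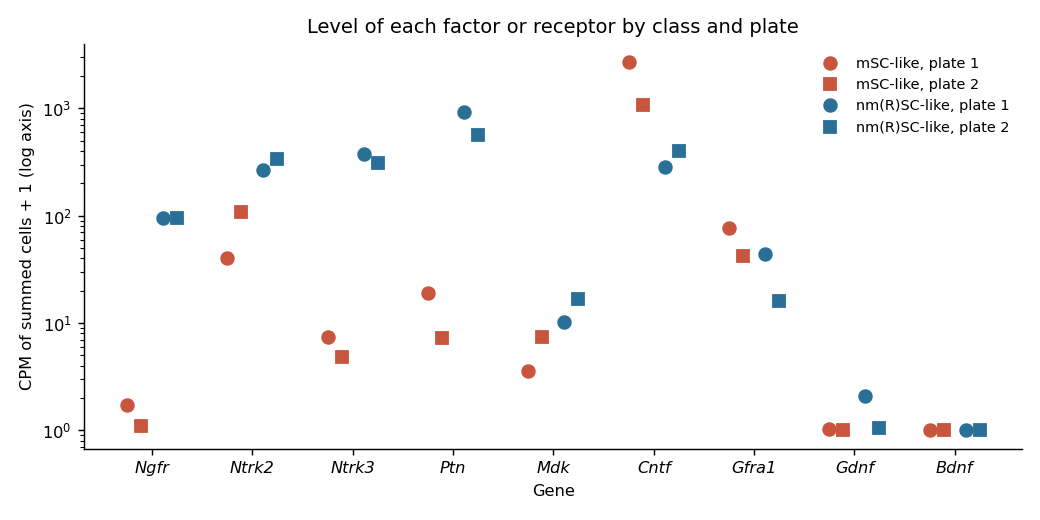
Level of each gene as CPM + 1 on a log axis, for mSC-like (red) and nm(R)SC-like (blue) cells summed in plate 1 (circles) and plate 2 (squares). Ngfr, Ntrk2, Ntrk3 and Ptn were higher in nm(R)SC-like sums of both plates, Cntf was higher in mSC-like sums of both plates, and Bdnf was at 0 in all of them.

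Between these 2 classes, Ngfr, Ntrk3 and Ptn were higher in nm(R)SC-like cells and the Cntf gene was higher in mSC-like cells. Of the mSC-like clusters, only cluster 3 had Cntf above the nm(R)SC-like class in both plates. Of the 9 genes, 7 passed the filter on low counts and 4 of these passed the test, 3 higher in nm(R)SC-like cells (Ngfr, Ntrk3 and Ptn) and 1 higher in mSC-like cells (Cntf). The count includes Ngfr, which passed the filter through its nm(R)SC-like sums and is a marker of the study, so its direction adds no evidence. Over all genes, 3.45% passed, 1.71% higher in nm(R)SC-like and 1.74% higher in mSC-like cells. DESeq2, as another test, called 5 of the 7, with Ntrk2 added, beside 12.9% of all genes (7.26% and 5.61% in these directions). The median log2 ratio of the 7 genes was -2.0 beside -0.12 for all genes tested. Because the genes were chosen with earlier results of these data known, the values over all genes are given as a description only. The call for Cntf did not hold when the genes that overlap listed genes were also left out of the clustering, as given with its values.

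Ngfr encodes p75, which binds all neurotrophins. In the nm(R)SC-like class its level was 94.7 CPM (plate 1) and 93.9 CPM (plate 2), against 0.720 and 0.0924 CPM in mSC-like cells, which rest on 22 and 5 reads. The groups did not overlap. The log2 ratio was -8.19 ± 1.09 (edgeR adjusted p = 0.00755). The study uses Ngfr as a marker of non-myelinating SCs on these cells, and it passed the filter on low counts through its nm(R)SC-like sums. Its direction is therefore not independent evidence.

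Ngfr was read in a minority of nm(R)SC-like cells. The share was 39.5% (30.5 to 49.1%) in plate 1 and 19.9% (15.1 to 25.5%) in plate 2, or 29.7% ± 13.8 (SD, n = 2 plates). Among mSC-like cells it was 0 of 97 and 0 of 71, where 3 cells would be 3.09% and 4.23%. The level in single nm(R)SC-like cells ran from 0, also the median, to 1589 CPM (plate 1) and 2896 CPM (plate 2). A single cell held 25.9% of the Ngfr reads of nm(R)SC-like cells in plate 2.

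Ntrk3 encodes TrkC, the receptor of neurotrophin 3. It stood at 376 and 310 CPM (nm(R)SC-like, plates 1 and 2) and at 6.35 and 3.88 CPM (mSC-like), with no overlap between the groups. The log2 ratio was -5.93 ± 0.48 (edgeR adjusted p = 0.00142). Ntrk3 was read in 54.4% (44.8 to 63.7%) and 37.8% (31.6 to 44.2%) of the nm(R)SC-like class and in 1 of 97 and 1 of 71 mSC-like cells. One cell held 93.8% of the Ntrk3 reads of mSC-like cells in plate 2.

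Ntrk2 encodes TrkB, the receptor of BDNF. Its level was 264 and 335 CPM in nm(R)SC-like and 39.6 and 108 CPM in mSC-like cells, so that all nm(R)SC-like values lay above the mSC-like ones. The log2 ratio of -2.0 ± 0.44 did not pass the test (edgeR adjusted p = 0.0544). Under 14 other settings its adjusted p ran from 0.000812 to 0.264, and 6 of them called it. Ntrk2 was read in 57.0% (47.4 to 66.3%) and 29.1% (23.4 to 35.2%) of the nm(R)SC-like class, and in 10.3% (5.06 to 18.1%) and 11.3% (4.99 to 21%) of mSC-like cells.

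Ptn was the most widely read of the 9 genes in nm(R)SC-like cells. Its level was 915 and 564 CPM there and 17.9 and 6.30 CPM in mSC-like cells, with no overlap. The log2 ratio was -5.90 ± 0.47 (edgeR adjusted p = 0.00142). It was read in 93.0% (86.6 to 96.9%) and 64.3% (57.9 to 70.4%) of nm(R)SC-like cells, or 78.7% ± 20.3 (SD, n = 2 plates), against 7.22% (2.95 to 14.3%) and 2.82% (0.343 to 9.81%) of mSC-like cells. The median level of single nm(R)SC-like cells was 576 CPM (plate 1) and 359 CPM (plate 2). In plate 1, 104 of 144 mSC-like cells had at least 1 read of Ptn, and 40 of them still had one after the reads expected from index exchange between libraries were subtracted.

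Mdk, the other growth factor of this pair, was low. It stood at 9.14 and 15.7 CPM in nm(R)SC-like and 2.59 and 6.39 CPM in mSC-like cells, and its log2 ratio of -1.38 ± 1.55 did not pass the test (edgeR adjusted p = 0.855). It was read in 4.39% (1.44 to 9.94%) and 3.32% (1.44 to 6.44%) of the nm(R)SC-like class and in 1 mSC-like cell of each plate. A single cell held 97.1% of its mSC-like reads in plate 2.

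Gfra1, the GDNF receptor that lacks a signaling domain of its own, stood at 75.3 and 40.8 CPM in mSC-like against 43.4 and 15.1 CPM on the nm(R)SC-like side. The groups overlapped across plates, and the log2 ratio of 1.29 ± 0.64 did not pass (edgeR adjusted p = 0.470). It was read in 26.8% (18.3 to 36.8%) and 8.45% (3.17 to 17.5%) of mSC-like cells and in 7.89% (3.67 to 14.5%) and 2.49% (0.919 to 5.34%) of nm(R)SC-like cells. A single cell held 67.4% of its nm(R)SC-like reads in plate 2.

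The ligands of these receptors were nearly unread. Bdnf had 0 reads in every class of both plates, where 3 reads would be 0.0771 CPM (plate 1) and 0.0195 CPM (plate 2) of the nm(R)SC-like sums. Gdnf had 42 reads in 1 nm(R)SC-like cell of plate 1, 8 reads in 1 nm(R)SC-like cell of plate 2 and 1 read in an mSC-like cell. Neither gene passed the filter on low counts.

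**Figure D2:**
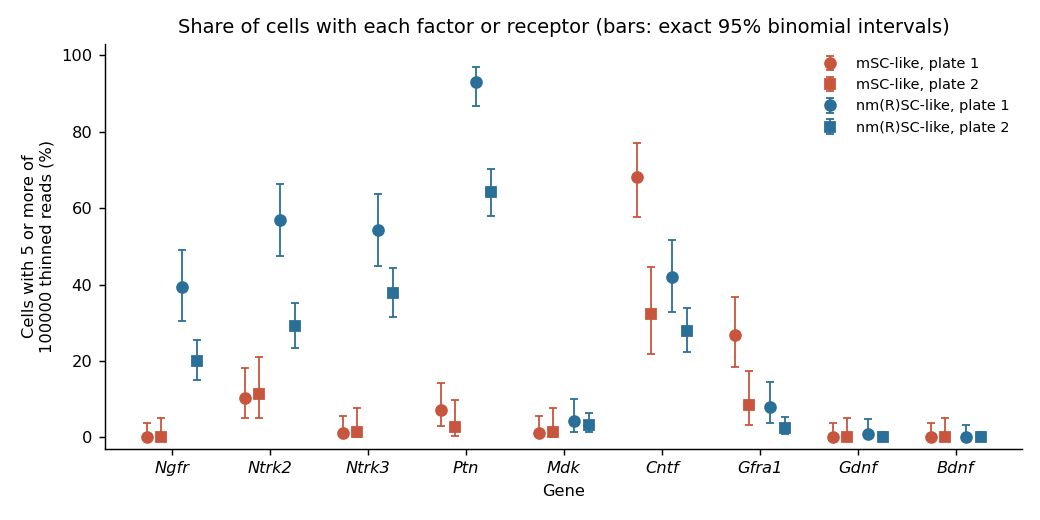
Percent of mSC-like (red) and nm(R)SC-like (blue) cells with 5 or more reads of a gene after thinning to 100000 reads, in plate 1 (circles) and plate 2 (squares), with exact 95% binomial intervals. Ptn has the highest nm(R)SC-like shares (93.0% and 64.3%), and each share above 15% in this class was lower in plate 2.

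**Figure D3:**
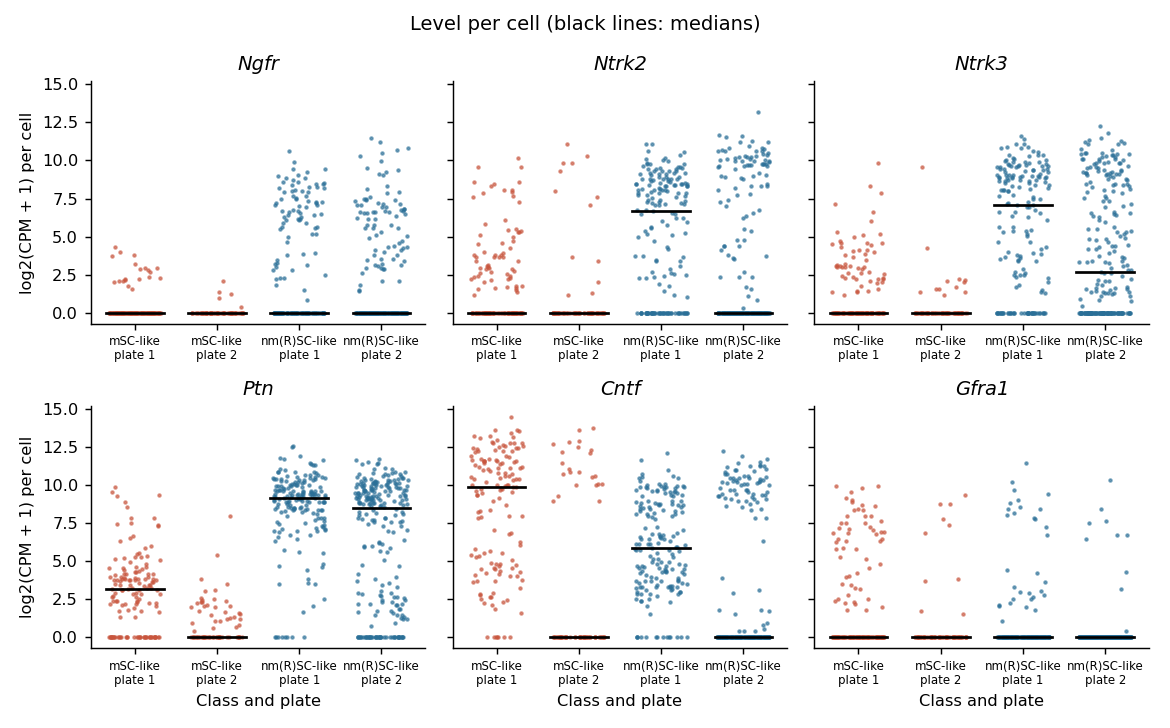
Level per cell as log2(CPM + 1) for 6 of the genes, 1 point per cell, by class and plate, with the median as a black line. Ngfr points of mSC-like cells stay low, Ptn medians of nm(R)SC-like cells are 576 and 359 CPM, and Cntf has high cells in both classes.

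Cntf carried many reads, and they cannot be told apart from those of another gene. Its level was 2682 and 1069 CPM on the mSC-like side and 282 and 402 CPM on the nm(R)SC-like side (plates 1 and 2), with no overlap. It was read in 68.0% (57.8 to 77.2%) and 32.4% (21.8 to 44.6%) of mSC-like cells and in 42.1% (32.9 to 51.7%) and 27.8% (22.2 to 33.9%) of nm(R)SC-like cells. With a minimum of 2500 genes per cell the order of the plate 2 shares turned, to 34.2% (19.6 to 51.4%) in mSC-like and 41.4% (29.8 to 53.8%) in nm(R)SC-like cells. The log2 ratio was 2.51 ± 0.51 (edgeR adjusted p = 0.0419).

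On the same strand, annotated exons of Zfp91, a zinc finger gene, cover 78.9% of the exon bases of Cntf. The Zfp91 level was 2740 and 1071 CPM for mSC-like and 343 and 430 CPM for nm(R)SC-like sums, close to that of Cntf in each sum. Zfp91 was not left out of the clustering, so reads of Cntf took part in defining the classes in which Cntf was tested. With Zfp91 and 8 other genes that overlap listed genes left out as well, a step added after the results were seen, the log2 ratio was 2.51 and the call ended (edgeR adjusted p = 0.0584). In that fit 3 of the 7 genes passed, all higher in nm(R)SC-like cells (Ngfr, adjusted p 0.0128, Ntrk3, 0.00258, and Ptn, 0.00258), beside 2.52% of all genes (1.24% higher in nm(R)SC-like and 1.28% in mSC-like cells).

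Promoter windows from 250 bases before to 50 bases after the start are shown for Ngfr, Ptn and Cntf. Levels of Ngfr and Ptn were higher in nm(R)SC-like sums, and those of Cntf in mSC-like sums. The windows are from RefSeq on GRCm38.p6, 5′ to 3′ on the strand of the gene. The table held windows for 7 of the 9 genes. Capitals mark 3 letter patterns searched on both strands, and any overlapping matches are merged. These are GGGCGG, a GC box, in 35.7% of all 32851 windows, TGACTCA, an AP-1 type pattern, in 5.2%, and ACAAAG, a SOX type pattern, in 18.7%.
Ngfr at chr11:95587649-95587948, minus strand: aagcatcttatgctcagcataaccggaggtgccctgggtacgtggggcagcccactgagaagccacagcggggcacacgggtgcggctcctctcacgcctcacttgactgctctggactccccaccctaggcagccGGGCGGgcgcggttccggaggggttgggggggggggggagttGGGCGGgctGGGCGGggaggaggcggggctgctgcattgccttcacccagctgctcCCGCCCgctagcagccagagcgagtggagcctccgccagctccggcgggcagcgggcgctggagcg
Ptn at chr6:36810130-36810429, minus strand: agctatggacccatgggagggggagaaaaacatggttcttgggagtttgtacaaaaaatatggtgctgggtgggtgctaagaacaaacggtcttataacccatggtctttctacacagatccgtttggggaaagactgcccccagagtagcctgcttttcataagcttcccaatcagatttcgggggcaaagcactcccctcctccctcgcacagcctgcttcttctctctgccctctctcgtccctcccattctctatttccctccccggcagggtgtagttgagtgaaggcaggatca
Cntf at chr19:12765583-12765882, minus strand: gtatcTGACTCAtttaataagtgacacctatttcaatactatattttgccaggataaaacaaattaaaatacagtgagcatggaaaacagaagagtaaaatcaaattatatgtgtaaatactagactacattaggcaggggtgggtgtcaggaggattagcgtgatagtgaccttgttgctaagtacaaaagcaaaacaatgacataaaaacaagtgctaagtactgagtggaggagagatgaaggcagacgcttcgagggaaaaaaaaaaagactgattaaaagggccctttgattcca
The Ngfr window held GGGCGG 4 times and had a GC content of 71.7%, beside a median of 52.7% over all windows. The Ptn window held none of the 3 patterns at a GC content of 52.0%. The Cntf window held TGACTCA once at a GC content of 36.3%, and it lies inside the span of Zfp91 (chr19:12763660-12796126). These matches describe the letters only.

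On GRCm38 (GENCODE M21) the other genes, all protein coding, lie as follows and share no exon bases with another gene. Ngfr is at chr11:95568818-95587735, Ntrk2 at chr13:58806569-59133970, Ntrk3 at chr7:78175959-78738012, Ptn at chr6:36714929-36810220 and Mdk at chr2:91929805-91932297. Gfra1 is at chr19:58235604-58455909, Gdnf at chr15:7810846-7837575 and Bdnf at chr2:109674700-109727007, while Cntf is at chr19:12763660-12765632.

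Per kilobase of merged exons, which allows genes to be compared, nm(R)SC-like cells had Ptn at 267 and 164 RPKM, Ngfr at 27.5 and 27.2, Ntrk2 at 13.7 and 17.4 and Ntrk3 at 12.5 and 10.3 in plates 1 and 2. Mdk was at 6.91 and 11.9 RPKM and Gfra1 at 7.93 and 2.75. Ptn stood above the receptors in both plates, and Ngfr above Ntrk2 and Ntrk3. The order of Ntrk3, Mdk and Gfra1 differed between the plates. Cntf, with the reads it shares, was at 263 and 374 RPKM in these cells and at 2499 and 996 in mSC-like cells, where it was the highest of the 9. The merged exons of Ntrk2 and Ntrk3 span 19292 and 30170 bases, longer than any 1 transcript, which lowers their RPKM.

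Within the mSC-like class, Cntf was higher in cluster 3 and Ntrk2 in cluster 2, and both genes were read in cluster 2. Cluster 3, whose leading genes include Mfap5, Ogn and Cntf itself, had Cntf at 3927 and 3602 CPM in plates 1 and 2, while cluster 2, led by Emid1 and Ncmap, had 310 and 113 CPM. Cntf was read in 88.7% (78.1 to 95.3%) and 89.5% (66.9 to 98.7%) of cells of cluster 3 and in 31.4% (16.9 to 49.3%) and 11.5% (4.35 to 23.4%) of cells of cluster 2. The nm(R)SC-like class had Cntf at 282 and 402 CPM, so cluster 2 was near it in plate 1 and below it in plate 2. The shares of cluster 2 were below those of that class in both plates. Cluster 3 made up 59.7% of mSC-like cells in plate 1 and 26.4% in plate 2, which moves with the lower Cntf share of mSC-like cells in plate 2, and its part in that was not tested. With the overlapping genes left out of the clustering, the corresponding cluster had 3927 and 3434 CPM.

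Ntrk2 showed the other arrangement. It was read in 28.6% (14.6 to 46.3%) and 15.4% (6.88 to 28.1%) of cells of cluster 2 and in 0 of 62 and 0 of 19 cells of cluster 3, where 3 cells would be 4.84% and 15.8%. With a minimum of 1 read it was found in 9 of 62 and 0 of 19 cells of cluster 3. Its level was 110 and 149 CPM against 2.595 and 0.0675 CPM. Gfra1 was at 95.6 and 81.0 CPM in cluster 3 and 36.7 and 25.7 CPM in cluster 2, and in plate 2 a single cell held 63.4% and 61.1% of these reads. A test between the mSC-like clusters was run only after these levels had been seen, so it is not reported, and the values by cluster are a description.

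Within the nm(R)SC-like class, cluster 1, led by Ednrb, Tagln2 and S100a4, held most reads of Mdk. Mdk stood there at 24.5 CPM, 62.1% of it from 1 cell, and 73.8 CPM, and at 0 and 1.77 CPM in cluster 0 and 0 and 1.46 CPM in cluster 4. Gfra1 was at 72.8 and 77.2 CPM in cluster 1, 41.4 and 0.0129 CPM in cluster 0, and 1.07 and 0.193 CPM in cluster 4, led by Aldh1a1. A single cell held 67.7% of the cluster 1 reads of Gfra1 in plate 2 and 68.1% of those of cluster 0 in plate 1. Ngfr was at 110 and 247 CPM in cluster 1, 102 and 61.3 CPM in cluster 0 and 59.5 and 49.8 CPM in cluster 4, with 50.6% of the cluster 1 reads of plate 2 in 1 cell. Ntrk3 was lowest in cluster 1, at 153 and 194 CPM, against 572 and 401 CPM in cluster 0 and 409 and 234 CPM in cluster 4. Ptn differed less, from 531 to 1003 CPM over the 3 clusters and both plates.

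**Figure D4:**
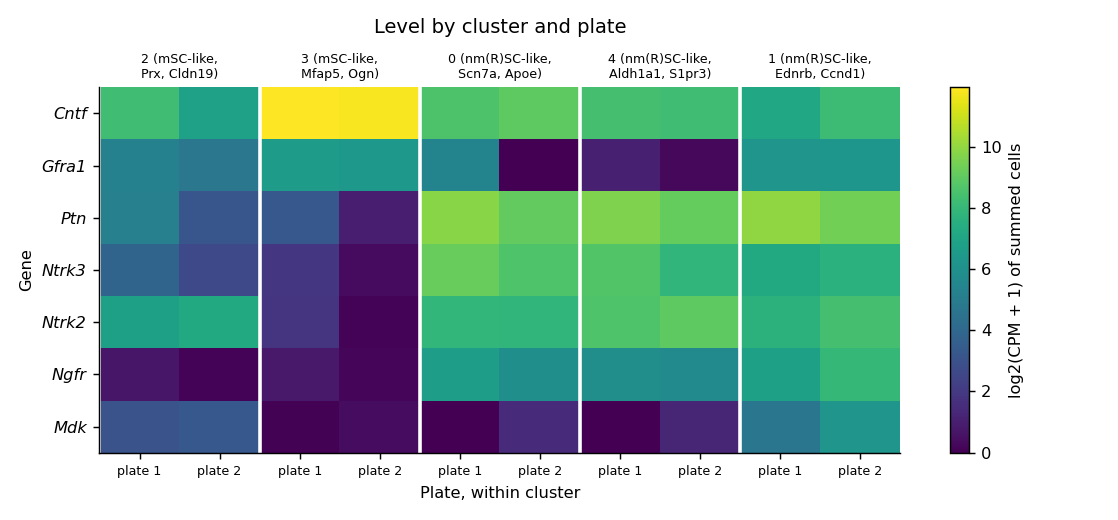
Level of 7 of the genes as log2(CPM + 1), summed per cluster and plate, with 2 of the 10 leading genes of each cluster above its columns. Cntf is highest in cluster 3 of both plates, Ntrk2 is lowest there, and Mdk is highest in cluster 1.

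Cells read for Ngfr were mostly read for Ptn as well, about as often as the product of the shares gives. Of nm(R)SC-like cells with Ngfr, 42 of 45 in plate 1 and 29 of 48 in plate 2 had Ptn, or 36.8% and 12.03% of all cells beside 36.7% and 12.8% from the product of the shares. Ngfr with Ntrk2 was found in 20.2% and 3.73% of cells, beside products of 22.5% and 5.79%. Ntrk2 with Ntrk3 was found in 32.5% and 12.03%, beside 31.01% and 10.97%. All 3 of Ngfr, Ntrk3 and Ptn were read in 21.1% of nm(R)SC-like cells in plate 1 and 4.98% in plate 2, and in no mSC-like cell. Gfra1 was read in few nm(R)SC-like cells, but 9 of 9 in plate 1 and 5 of 6 in plate 2 also had Ngfr, or 7.9% and 2.08% of all cells beside products of 3.12% and 0.496%. In mSC-like cells, 20 of 26 cells with Gfra1 in plate 1 and 4 of 6 in plate 2 also had Cntf, or 20.6% and 5.63% of all cells beside products of 18.2% and 2.74%.

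Genes most like each member over 12 sums per cluster and plate, among 8013 genes at 50 CPM or more in at least 1 sum, are given by Pearson's r of log2(CPM + 1) across sums, as a description. The sums share plates and, within a plate, library preparation. They differ in depth, and each counts the same in r. The prol. SC-like sum of plate 2 held only 189918 reads, with Ngfr from 2 reads and Ntrk2 from 1 read. Of its Ptn reads, 98.7% came from 1 cell. Values of r without that sum are not given. For Ngfr the most alike genes were Fam129a (r = 0.982), Nlgn3 (0.955) and Lbh (0.947). For Ntrk2 they were Myl12a (0.965), Hes1 (0.963) and Gbp7 (0.959), and for Ntrk3 Trim12a (0.980), S1pr3 (0.973) and Sema3e (0.971). For Ptn they were Emp3 (0.983), Cd44 (0.979) and Csmd1 (0.961). For Cntf they were Zfp91 (0.981), which shares its reads, Itm2a (0.974) and Gm37376 (0.968), and for Gfra1 Sgf29 (0.917), Prrc2c (0.906) and Prkcd (0.886).

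Of 64 other genes of these pathways, 43 passed the filter and 6 passed the test, 4 higher in nm(R)SC-like and 2 in mSC-like cells. The median log2 ratio of the 43 was -0.44. Over all genes tested, 3.45% passed, 1.71% higher in nm(R)SC-like and 1.74% higher in mSC-like cells. None of the 8 tested adaptors of neurotrophin receptors and none of the 7 tested receptors of pleiotrophin and midkine passed. At that share over all genes, a count of 0 among so few genes does not set these groups apart.

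Among ligands, the neurotrophins Ntf3 and Ntf5 had 0 reads in both classes, as did Ret, the signaling receptor of the GDNF family. Among receptors, Sorcs2, a sortilin-type partner of p75, was at 124 and 60.8 CPM in nm(R)SC-like and 0.818 and 0.0924 CPM in mSC-like cells, from 25 and 5 reads (log2 ratio -8.01 ± 0.99, edgeR adjusted p = 0.00572). Gfra3, the artemin receptor, was at 42.2 and 106 CPM against 0.327 and 0.111 CPM, from 10 and 6 reads (-8.22 ± 1.18, edgeR adjusted p = 0.0105). Gfra2, the neurturin receptor, was at 86.3 and 102 CPM against 0.687 and 8.72 CPM (-5.02 ± 1.04, edgeR adjusted p = 0.0456), and 1 cell held 99.2% of its mSC-like reads in plate 2. Sorcs2 and Gfra3, like Ngfr, passed the filter on low counts through their nm(R)SC-like sums, so the size of these ratios rests on few reads. Il6st (gp130), a signaling subunit used by CNTF, was at 165 and 146 CPM against 33.7 and 24.6 CPM (-2.25 ± 0.47, edgeR adjusted p = 0.0453).

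Higher in mSC-like cells were Il6ra, the IL-6 receptor, at 77.5 and 28.8 CPM against 2.06 and 1.44 CPM (4.95 ± 0.97, edgeR adjusted p = 0.0346), and Fgf7, a fibroblast growth factor, at 101 and 135 CPM against 5.29 and 0.208 CPM (6.91 ± 1.41, edgeR adjusted p = 0.0419). For Il6ra, 1 cell held 56.2% of the mSC-like reads in plate 1 and another all nm(R)SC-like reads in plate 2. On the CPM + 1 scale the log2 ratio of Fgf7 was 4.02 in plate 1 and 6.81 in plate 2. The size of its ratio thus leans on the low nm(R)SC-like sum of plate 2. With the overlapping genes left out of the clustering, Sorcs2, Gfra3 and Il6ra were called (edgeR adjusted p = 0.0105, 0.0167 and 0.0454) and Gfra2, Il6st and Fgf7 were not (0.0626, 0.0580 and 0.0584). The pericyte and smooth muscle markers summed to 123 and 60.1 CPM (mSC-like) and 10.7 and 15.6 CPM (nm(R)SC-like), with Rgs5 and Kcnj8 below 1 CPM in all 4 sums. Their part in these results was not tested.

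The other pathway genes at 50 CPM or more in a class in both plates that are given here did not pass. The log2 ratios of Sdc3, Fgf1, Maged1, Lrp1, Aatf and Psap were 1.86, 1.59, 0.73, 0.66, 0.39 and 0.05. Those of Nenf, Sort1, Grn and Pdgfa were -0.29, -0.44, -0.81 and -1.03. Sdc2, Sdc4 and Manf had -1.17, -1.34 and -1.34. The lowest edgeR adjusted p among them was 0.0947, for Sdc3, a syndecan.

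**Figure D5:**
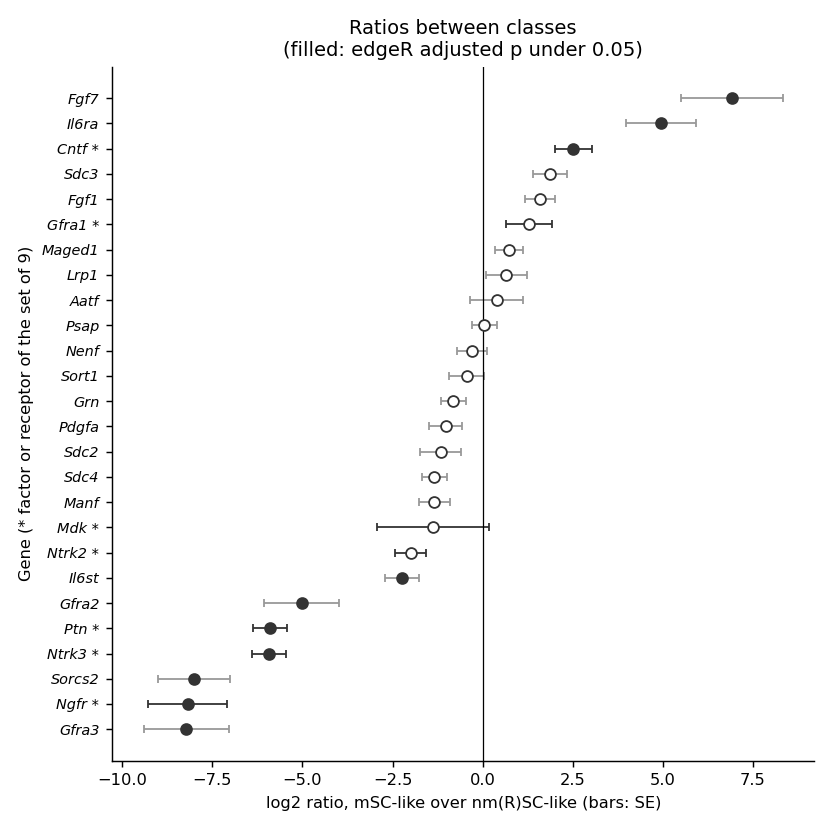
Log2 ratio of mSC-like over nm(R)SC-like cells with its SE for the 7 tested genes of the set (asterisks) and the named pathway genes, filled where the edgeR adjusted p passed. Gfra3, Ngfr and Sorcs2 lie below -8, each with 25 or fewer mSC-like reads per plate. Fgf7 lies at 6.91, with 0.208 CPM in the nm(R)SC-like sum of plate 2.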

How the data were processed

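Per the labels, reads were demultiplexed with bcl2fastq, aligned with STAR 2.6.1c to GRCm38.p5 and counted with featureCounts, while the methods text of the study names another STAR version and a human build. How strand and reads shared by overlapping genes were handled is not given in the sources used here. The authors deposited raw read counts per gene and cell for 768 Smart-Seq2 libraries, 74280540 reads in plate 1 and 209404659 in plate 2. Symbols and positions come from GENCODE M21.

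Cells with 1500 or more genes were integrated across plates (Seurat 5.3.0, 12 dimensions, resolution 0.5). The 9 genes and 64 pathway genes were held out of every clustering, and all other genes were split at random so that each was tested in classes built without it. Naming markers were not tested. Counts summed per plate and class (4 sums) were tested with edgeR 4.0.16 (TMM, filterByExpr minimum 10, plate as a block), and DESeq2 1.42.0 was an alternative.

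Both classes of a plate came from the same pool of animals, so the plate pairs them. The genes and the pathway list were chosen with earlier results of these data known. All 9 genes are named, with pathway genes that passed or reached 50 CPM in a class in both plates, and the 3 most alike genes of each member at 20 CPM or more, except genes that are not reported here. After results were seen, 2 choices were added. Genes overlapping listed genes were held out as well (82 in all), as an alternative to the planned fit, and a proliferating cluster had to have such a marker among its 10 leading genes, which left the classes used here as they were. Other alternatives were the test, block, normalization, filters, clustering, index exchange, thinning and single-cell weight.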

Additional observations from a re-analysis of the deposited data

Results flagged for a closer look

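The prol. SC-like cells were used in no comparison between classes, though their sums are among those used for the most alike genes. In plate 1, where 12 of them had 100000 or more reads, Ptn was read in 100% (73.5 to 100%), Ntrk2 in 75% (42.8 to 94.5%) and Ntrk3 in 41.7% (15.2 to 72.3%). These shares lie above the 25% that 3 of 12 cells would make, the limit used here for a count of 0, which is why they are listed. In plate 2 only 1 such cell had that depth, so the shares have no replicate.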

How the results depend on the processing

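Ngfr, Ntrk3 and Ptn were called under all 14 other settings of the test. Cntf was called under 11 and not without the replicate block (edgeR adjusted p = 0.0836), at resolution 0.3 (0.0506) or with overlapping genes held out (0.0584). The members called numbered 3 to 5. Without the block, which pairs the classes of a plate, 3 members, 3 pathway genes and 242 of all genes were called, against 4, 6 and 453 with it. DESeq2 called 16 pathway genes and 1691 of all genes, and 16 and 1665 with overlapping genes held out. A minimum of 2500 genes per cell gave 3 pathway genes and 176 of all genes. Holding out overlapping genes with edgeR gave 3 pathway genes and 331 of all genes. The cause of these shifts was not tested. The log2 ratio of Mdk was 0.67 without integration of the plates, the reverse of its sign otherwise, and it was called in neither. In single plates (no test possible), the log2 ratio of Cntf on the CPM + 1 scale was 3.24 in plate 1 and 1.41 in plate 2, and that of Ntrk2 -2.71 and -1.62. Mean shares were higher in nm(R)SC-like cells for 6 of the 9 genes, and for 5 to 6 with 1 plate left out. Among the 6 are Gdnf, whose share rests on 1 cell of plate 1, and Mdk, which few cells had. The same count over all genes was not made. With a minimum of 2500 genes per cell, plate 2 nm(R)SC-like shares rose to 84.3% for Ptn, 47.1% for Ntrk2, 41.4% for Ntrk3 and 25.7% for Ngfr. In plate 1 they were then 93.55%, 59.7%, 54.0% and 38.7%. The part of detected genes per cell in the lower plate 2 shares was not tested. With 2 plates an exact test of a share cannot go below p = 0.5. Levels under 3 reads in a sum and shares in the shallow plate 2 prol. SC-like cells are limited by depth.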
